A study of Mus musculus with 6 samples.

Results

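The mast cell genes described here are 10 genes of the colon transcriptome, taken from the deposited count table by gene symbol: the proteases Mcpt1, Mcpt2, Mcpt4, Cma1, Tpsb2 and Cpa3, the receptors Kit, Fcer1a and Ms4a2, and the histamine-forming enzyme Hdc. They are 10 of the 18477 genes in the table, and all 10 had at least 1 count. The libraries were made from colon RNA of male C57BL/6 mice, given as 6 to 8 weeks old at purchase. All mice drank 2% dextran sulfate sodium (DSS), which damages the epithelial lining of the colon, from day 8 to day 14. The DSS group (n = 3) also received PBS by gavage once daily for 14 days, and the DSS+BV group (n = 3) received the gut bacterium Bacteroides vulgatus in its place. No library without DSS was analysed here, and the labels give the tissue only as colon, with no position along it. The comparison asks how B. vulgatus gavage was associated with colon gene expression during DSS colitis.

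Mast cells are tissue-resident cells filled with granules of proteases and histamine. In the mouse they are divided by their proteases. Mucosal mast cells, which lie in the epithelium and lamina propria of the gut, carry the chymases encoded by Mcpt1 and Mcpt2. Connective tissue mast cells, which lie in the submucosa and muscle layers, carry the chymases encoded by Mcpt4 and Cma1 and the tryptase encoded by Tpsb2. The carboxypeptidase gene Cpa3 was counted here with the connective tissue proteases, which does not make it a marker of that type alone. Kit, the receptor for stem cell factor, keeps mast cells alive, and the high-affinity IgE receptor, which contains the chains encoded by Fcer1a and Ms4a2, triggers the release of the granules.

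Both chymase types lie in one cluster. In GRCm38.p6, RefSeq places Cma1 at chr14:55941451-55944675, Mcpt1 at chr14:56017964-56020391, Mcpt2 at chr14:56021584-56044635, an interval that overlaps Mcpt9, and Mcpt4 at chr14:56059744-56062310. Cpa3 is at chr3:20215616-20242209, Tpsb2 at chr17:25366308-25368096, Kit at chr5:75574987-75656722, Fcer1a at chr1:173221269-173227232, Ms4a2 at chr19:11615517-11623790 and Hdc at chr2:126593659-126624025.

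The promoters of 4 members are shown, 5′ to 3′ on the gene's own strand, because they contrast a mucosal with a connective tissue chymase and the granule gene Cpa3 with Hdc, the one member whose groups did not overlap. Each is the 250 bases before a RefSeq transcription start in GRCm38.p6, which need not be the outermost start of the gene. Capitals mark GATAA, the core recognised by GATA factors.
Mcpt1, chr14:56017714-56017963, plus strand: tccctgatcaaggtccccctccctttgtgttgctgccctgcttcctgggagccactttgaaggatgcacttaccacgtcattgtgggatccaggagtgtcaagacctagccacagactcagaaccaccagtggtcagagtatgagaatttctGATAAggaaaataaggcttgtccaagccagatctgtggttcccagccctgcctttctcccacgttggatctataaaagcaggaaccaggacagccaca
Mcpt4, chr14:56062311-56062560, minus strand: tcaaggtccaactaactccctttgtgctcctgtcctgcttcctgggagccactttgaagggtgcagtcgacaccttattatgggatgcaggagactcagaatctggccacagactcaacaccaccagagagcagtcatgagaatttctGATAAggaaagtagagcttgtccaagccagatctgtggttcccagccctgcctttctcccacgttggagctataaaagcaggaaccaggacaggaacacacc
Cpa3, chr3:20242182-20242431, minus strand: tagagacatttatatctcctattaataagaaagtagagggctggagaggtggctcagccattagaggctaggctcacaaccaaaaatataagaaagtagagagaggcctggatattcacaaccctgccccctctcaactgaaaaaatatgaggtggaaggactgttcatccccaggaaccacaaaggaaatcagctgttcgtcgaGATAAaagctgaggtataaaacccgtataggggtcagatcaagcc
Hdc, chr2:126618679-126618928, minus strand: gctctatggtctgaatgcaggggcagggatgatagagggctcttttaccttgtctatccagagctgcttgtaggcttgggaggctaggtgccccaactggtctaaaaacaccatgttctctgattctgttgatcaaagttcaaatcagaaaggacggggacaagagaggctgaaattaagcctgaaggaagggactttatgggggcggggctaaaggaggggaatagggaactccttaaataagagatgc

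The Mcpt1 and Mcpt4 windows were identical at 209 of 242 aligned positions (86.4%). Both held 1 GATAA, from 98 to 94 bases before the start in Mcpt1 and from 102 to 98 bases before it in Mcpt4. In Cpa3 the motif lay from 45 to 41 bases before the start used, and this window reached into the annotated gene interval. The Hdc window lies wholly inside the annotated gene interval, not before its outer end. It did not hold these letters, so its contrast with Cpa3 is limited to this window. RefSeq promoters were matched for 8 of the 10 members. GATAA was present on either strand in 6 of the 8 (Mcpt1, Mcpt4, Cma1, Cpa3, Fcer1a and Ms4a2) and in 7418 of all 32851 promoter windows of this length (22.6%). Ms4a2 held 3 copies and Kit held none. The motif was searched as GATAA and its reverse complement TTATC, and these matches are descriptions of sequence only.

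Library totals lay between 15293276 and 17254343 expected counts, so that 1 count was worth between 0.0582 and 0.0660 CPM (the usual per-library scale of counts, here with totals corrected by TMM factors). Mast cell transcripts were sparse at this depth. Mcpt4, Tpsb2, Fcer1a and Ms4a2 stayed under 20 counts in every library and were removed by the filter on low counts, and the other 6 members were among the 14579 genes tested. Over these genes, DSS 2 correlated less with DSS 1 and DSS 3 (Pearson's r across genes on log2 CPM, 0.936 for both) than with the 3 DSS+BV libraries (0.950 to 0.963). DSS+BV 1 correlated best with DSS 1 (0.967). Results are therefore also given without both libraries where this changed a call or a direction of the members and lists, although leaving out the libraries that resemble the other group favours a difference. No pair within a group was a duplicate: chi-square over degrees of freedom ranged from 43.7 to 125 for these pairs, far above sampling noise. Pairs across groups were not tested.

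None of the 6 tested mast cell genes passed the threshold in either direction with edgeR (an adjusted p-value below 0.05 with a log2 fold change beyond 1 in size), against 13 of all 14579 genes tested (0.0892%) in either direction, 13 lower (0.0892%) and 0 higher (0%). At an unadjusted p-value under 0.05, Hdc was the 1 member lower in the DSS+BV group and 0 members were higher, against 9.12% of all genes lower and 3.4% higher. With DESeq2 the same Hdc was called lower and 0 members were called higher, against 1.93% and 0.281% of all genes. Expression of 1 of the 10 members, again Hdc, did not overlap between the groups, where 11.3% of the tested genes were lower without overlap and 6.37% were higher (17.6% in either direction). Log2 fold changes, given as DSS+BV against DSS, were below 0 for 4 and above 0 for 2 of the 6 tested members. Their median was -0.49, and that of all tested genes was -0.01, with 51.5% of those below 0. In bulk tissue, fewer cells of a type and less RNA per cell cannot be told apart.

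**Figure D1:**
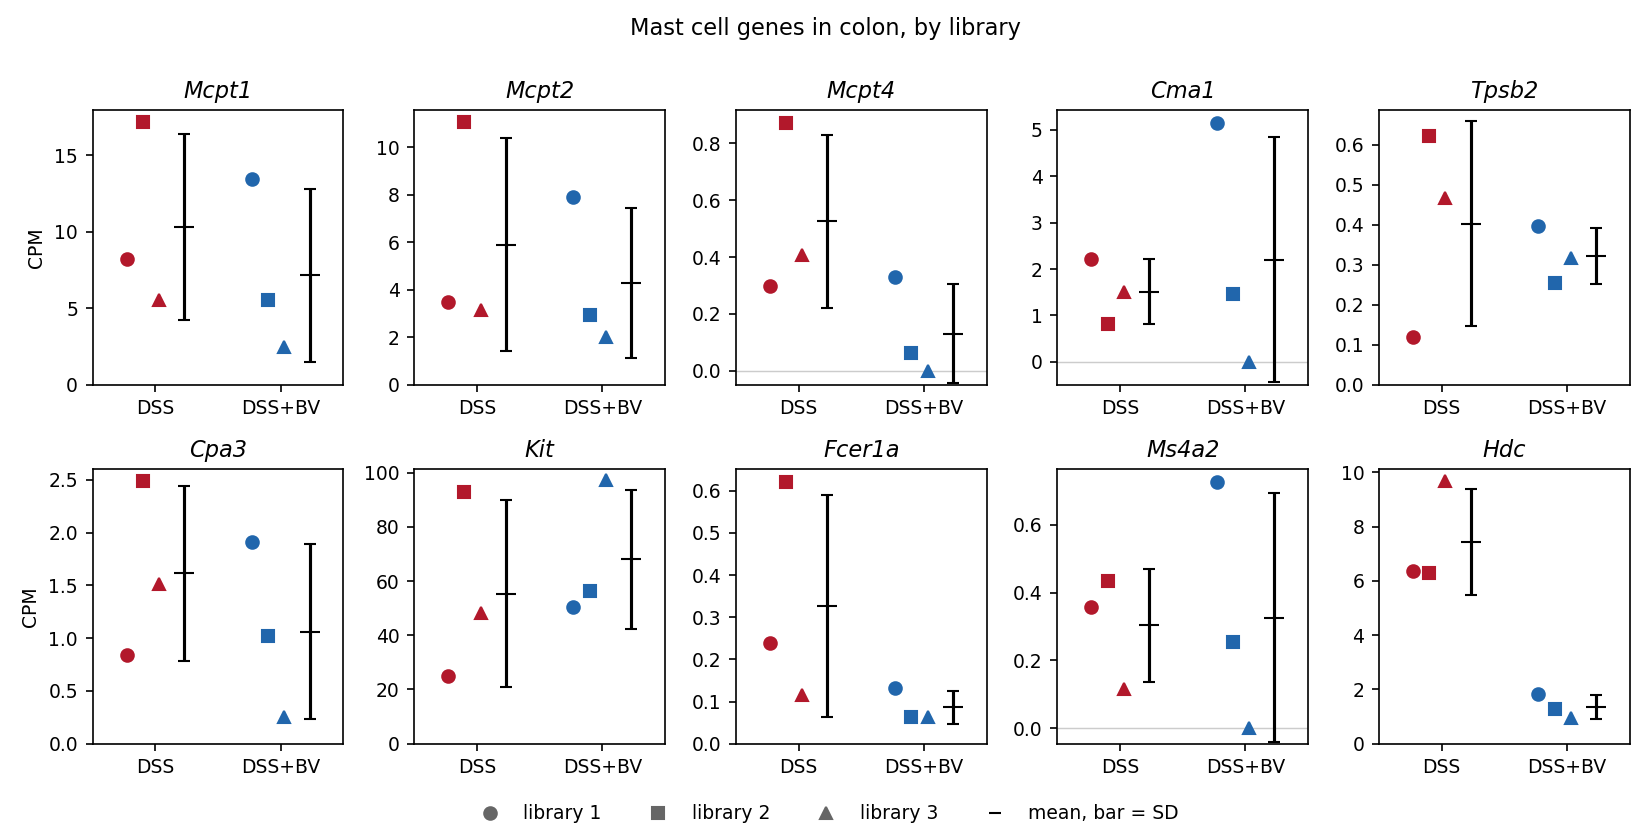
Expression of the 10 mast cell genes in each colon library, in CPM (y axis, own scale for each gene), for the DSS group (red) and the DSS+BV group (blue). Symbols mark the library number and black bars the mean and SD of 3 libraries. Hdc is the only panel in which the blue points all lie below the red ones.

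Of the 6 protease genes among the members, the mucosal chymases were the most abundant. Mcpt1 was at 8.20, 17.2 and 5.53 CPM across DSS 1 to 3 and 13.5, 5.54 and 2.47 CPM across DSS+BV 1 to 3. Mcpt2 was at 3.47, 11.1 and 3.14 CPM in the DSS libraries and at 7.92, 2.93 and 2.02 CPM in the DSS+BV libraries. DSS 2 and DSS+BV 1 held the highest levels of both genes and DSS+BV 3 the lowest, and the groups overlapped. Group means were 10.3 ± 6.09 and 7.15 ± 5.67 CPM for Mcpt1 and 5.89 ± 4.48 and 4.29 ± 3.17 CPM for Mcpt2 (SD, n = 3 each). The log2 fold change of Mcpt1 was -0.53 (SE 0.67, 95% interval -2.14 to 1.09, adjusted p = 0.774). That of Mcpt2 was -0.46 (SE 0.69, 95% interval -2.11 to 1.19, adjusted p = 0.809). Both intervals reach from a large fall to a rise. The direction rested on DSS 2. Without that library, Mcpt1 was at 0.08 and Mcpt2 at 0.39 on the log2 scale.

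Both mucosal genes followed nearly the same order of libraries, and only DSS 3 and DSS+BV 2 changed places between them. Per kilobase of transcript, Mcpt1 exceeded Mcpt2 in all 6 libraries, by 1.28-fold in DSS+BV 3 to 2.47-fold in DSS 1. Their longest transcripts were identical at 790 of 961 aligned bases (82.2%), with no 50-base stretch in common with another gene. All members had whole-number counts in the deposited table.

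The connective tissue chymases were less abundant and varied more. Cma1, known as mast cell chymase 1, was at 2.22, 0.808 and 1.51 CPM across DSS 1 to 3 and 5.14, 1.47 and 0 CPM across DSS+BV 1 to 3. The highest and the lowest value belonged to the same group. The count of 0 in DSS+BV 3 allows a level of up to 0.190 CPM (3 counts). The means were 1.51 ± 0.704 and 2.2 ± 2.65 CPM (SD, n = 3 each) and the log2 fold change was 0.54 (SE 1.2, 95% interval -2.33 to 3.40, adjusted p = 0.878). It turned to -1.02 without DSS+BV 1 and to -1.31 without both DSS+BV 1 and DSS 2.

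Mcpt4, a chymase that cleaves matrix proteins and cytokines, had 5, 14 and 7 counts in the DSS libraries and 5, 1 and 0 in the DSS+BV libraries, or 0.299, 0.870 and 0.408 against 0.330, 0.0637 and 0 CPM. DSS+BV 1 lay between DSS 1 and DSS 3, so that the groups overlapped. In a fit that kept every gene with a count, its log2 fold change was -1.93 (95% interval -4.29 to 0.43, adjusted p = 0.515). Of the 50-base stretches in its transcript, 5.48% occur also in Cma2 or Mcpt9, and 5.38% of those in Cma1 occur in Gm48934, so low values of these 2 genes are less certain.

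Tpsb2, a tryptase, had between 2 and 10 counts in the DSS libraries and between 4 and 6 in the DSS+BV libraries, with means of 0.402 ± 0.257 and 0.322 ± 0.0707 CPM (SD, n = 3 each) and a log2 fold change of -0.29 in the fit of every gene (95% interval -1.91 to 1.33). Cpa3, the carboxypeptidase stored with the proteases, was at 0.838, 2.49 and 1.51 CPM across DSS 1 to 3 and 1.91, 1.02 and 0.253 CPM across DSS+BV 1 to 3. As for the mucosal chymases, the 2 highest values belonged to DSS 2 and DSS+BV 1 and the lowest to DSS+BV 3. The means were 1.61 ± 0.829 and 1.06 ± 0.831 CPM (SD, n = 3 each). The log2 fold change of Cpa3 was -0.60 (SE 0.72, 95% interval -2.33 to 1.13, adjusted p = 0.757), and it lay between -1.32 without DSS+BV 1 and -0.13 without DSS+BV 3.

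**Figure D2:**
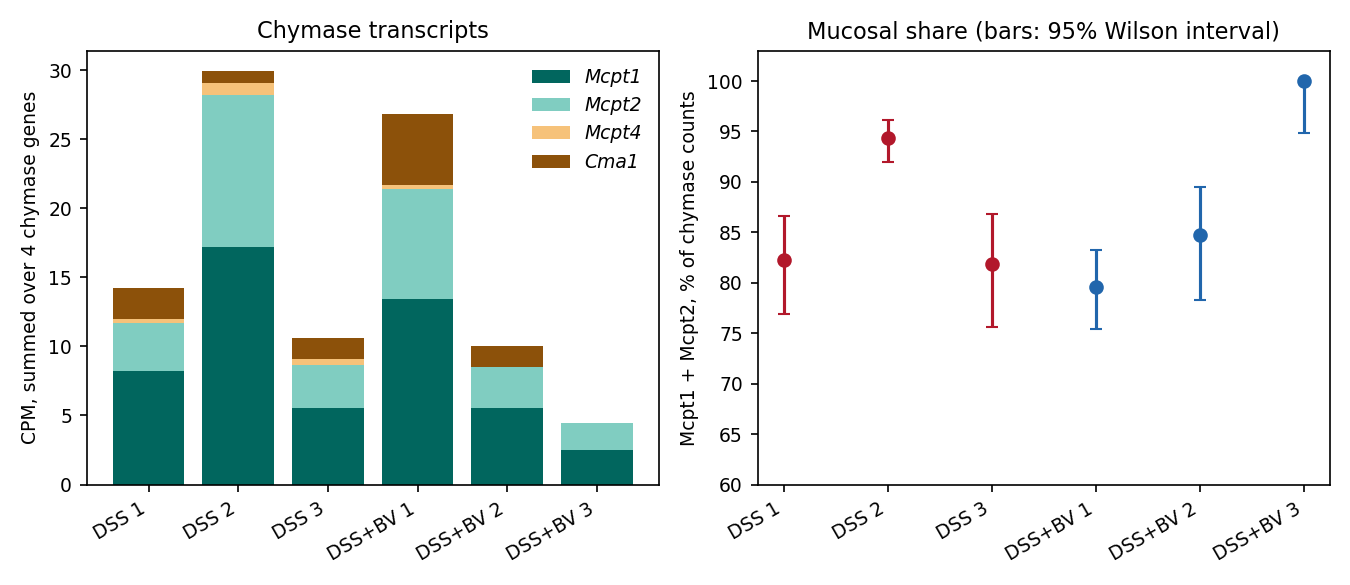
Left, summed CPM of the 4 chymase genes in each library. Right, counts of Mcpt1 and Mcpt2 as a percentage of the counts of all 4 chymase genes, with 95% Wilson intervals for counting error only (axis from 60%). The share lies between 79.6% and 100% and the DSS libraries (red) and DSS+BV libraries (blue) overlap.

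Mucosal chymases made up most chymase counts in every library. Mcpt1 and Mcpt2 together accounted for 195 of 237 chymase counts in DSS 1 (82.3%, 95% Wilson interval 76.9 to 86.6%), 454 of 481 in DSS 2 (94.4%, 92.0 to 96.1%) and 149 of 182 in DSS 3 (81.9%, 75.6 to 86.8%). The share was 324 of 407 in DSS+BV 1 (79.6%, 75.4 to 83.2%), 133 of 157 in DSS+BV 2 (84.7%, 78.3 to 89.5%) and 71 of 71 in DSS+BV 3 (100%, 94.9 to 100%). In DSS+BV 3 no connective tissue chymase count was found. A limit of 3 counts, which is another rule than the Wilson interval, allows a share of up to 4.23%. DSS 2 and DSS+BV 3 thus had the highest mucosal share, although they held the largest and the smallest amount of mucosal chymase, at 28.2 and 4.49 CPM. The mean log2 CPM of the 2 mucosal genes minus that of Mcpt4, Cma1, Tpsb2 and Cpa3 was 2.98, 3.58 and 2.17 across DSS 1 to 3 and 3.05, 2.79 and 3.39 across DSS+BV 1 to 3. The difference between the group means was 0.17, smaller than the SD of 0.55 between libraries of a group, and the values of both groups overlapped. This ratio is limited because Cpa3 and Mcpt4, on its connective tissue side, correlated with Mcpt1 (Pearson's r 0.891 and 0.858 over 6 libraries). For Cma1 the value was 0.689.

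Among the receptors, Kit was abundant and the IgE receptor chains were near the limit of detection. Kit was at 25.1, 92.9 and 48.2 CPM across DSS 1 to 3 and 50.4, 56.2 and 97.4 CPM across DSS+BV 1 to 3. The values overlapped, with the lowest in DSS 1 and nearly equal highest values in DSS 2 and DSS+BV 3. The means were 55.4 ± 34.4 and 68.0 ± 25.6 CPM (SD, n = 3 each), and the log2 fold change was 0.30 (SE 0.49, 95% interval -0.86 to 1.46, adjusted p = 0.827). It was -0.05 without DSS 1 and -0.05 without DSS+BV 3.

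Kit is not particular to mast cells, since interstitial cells of Cajal, the pacemaker cells of the gut muscle, and secretory cells deep in colon crypts also express it. The order of the libraries by Kit was not that of the mast cell proteases: DSS+BV 3, lowest for Mcpt1, Mcpt2 and Cpa3, was highest for Kit. It was the same as the order by Muc2, the main mucin of goblet cells, a gene chosen from the 6 colon epithelium markers after the values were seen. Other markers of the list differed: Slc26a3, a chloride exchanger gene, was lowest in DSS+BV 3 at 146 CPM, and Epcam, Krt20 and Car1 were highest in DSS+BV 2. Muc2 was at 2339, 10171 and 4239 CPM across DSS 1 to 3 and 6878, 8265 and 20700 CPM across DSS+BV 1 to 3. The summed level of the 6 colon epithelium markers was 5223 to 13740 CPM in the DSS group and 10557 to 32297 CPM in the DSS+BV group. Muc2 was the largest part of this sum in every library except DSS+BV 2, where Car1 was. The sum is therefore not independent of Muc2. All 6 markers were above 0 on the log2 scale (median 0.72), and 0 were called with edgeR. With DESeq2, 1 of them, the carbonic anhydrase gene Car1, was called higher, against 0.281% of all genes. Without both DSS 2 and DSS+BV 1, 2 were called higher with edgeR, against 282 of all 14654 genes tested in that fit. For the interstitial cells of Cajal, the chloride channel gene Ano1 was at 70.5, 74.9 and 91.5 CPM in the DSS libraries and at 164, 112 and 52.4 CPM in the DSS+BV libraries, where the lowest value belonged to the library with the most Kit. The transcription factor gene Etv1 was at 11.8, 16.7 and 28.0 against 10.3, 12.8 and 13.4 CPM, the last in that same library. The summed level of their 4 markers was 480 to 556 CPM against 102 to 807 CPM, with 0 called. Thbs4 made up most of this sum in every library except DSS+BV 3, at 353 to 465 CPM in the DSS group and 32.6 to 627 CPM in the DSS+BV group. None of these markers was at 0, and their part in the level of Kit was not tested.

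Fcer1a, the IgE-binding chain, had 4, 10 and 2 counts in the DSS libraries and 2, 1 and 1 in the DSS+BV libraries. The highest DSS+BV value, 0.132 CPM, lay above the lowest DSS value, 0.116 CPM. Its log2 fold change in the fit of every gene was -1.80 (95% interval -3.84 to 0.24, adjusted p = 0.488). Ms4a2, the signalling beta chain, had 6, 7 and 2 counts against 11, 4 and 0, with the highest and the lowest value both in the DSS+BV group, and a log2 fold change of 0.13 (95% interval -2.38 to 2.64). Without DSS+BV 1 the latter was -1.17. A difference in either chain was not detectable at this depth.

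Hdc, which encodes histidine decarboxylase, the enzyme that makes histamine, was the member with the smallest p-value. It was at 6.35, 6.28 and 9.67 CPM across DSS 1 to 3 and 1.85, 1.27 and 0.948 CPM across DSS+BV 1 to 3, from 101 to 166 counts against 15 to 28 counts. Every DSS+BV value lay below every DSS value. The means were 7.43 ± 1.94 and 1.36 ± 0.455 CPM (SD, n = 3 each). The level was 5.46-fold lower in the DSS+BV group by edgeR (log2 fold change -2.45, SE 0.36, 95% interval -3.31 to -1.59, unadjusted p = 0.000315), and it ranked 41 among the tested genes by p-value, but it did not pass the adjustment (adjusted p = 0.112). The exact two-sided permutation test gave p = 0.1, the smallest that 3 against 3 libraries allow. With DESeq2 the log2 fold change was also -2.45 (SE 0.42) with an adjusted p of 1.2e-06. When each library was left out in turn, the log2 fold change lay between -2.72 and -2.21 and the adjusted p from edgeR between 0.123 and 0.664. Without both DSS 2 and DSS+BV 1 it was -2.82 with an adjusted p of 0.0396.

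**Figure D3:**
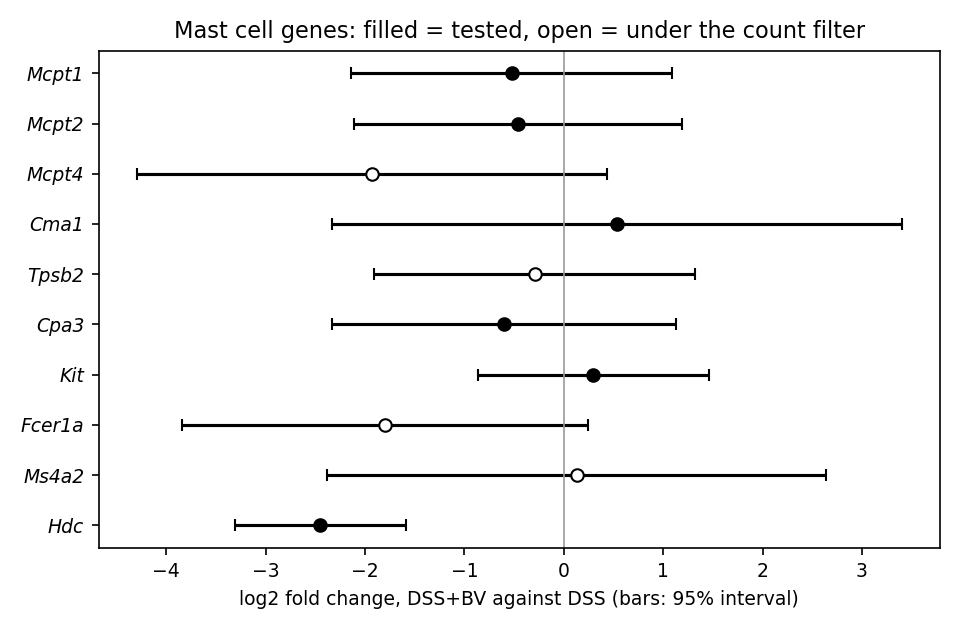
Log2 fold change of each mast cell gene, DSS+BV against DSS (x axis), with its 95% interval from edgeR. Filled symbols are the 6 tested genes and open symbols the 4 genes under the filter, taken from the fit that kept every gene. Hdc, at -2.45, is the gene whose interval does not include 0.

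Counts of Hdc were also set against those of Cpa3 and Mcpt1 within each library, without scaling for transcript length. There were 7.57, 2.53 and 6.38 counts of Hdc per count of Cpa3 across DSS 1 to 3 and 0.966, 1.25 and 3.75 across DSS+BV 1 to 3. This ratio overlapped between the groups, since DSS+BV 3 exceeded DSS 2. The value of DSS+BV 3 is uncertain, as it rests on 15 counts of Hdc and 4 of Cpa3. Per count of Mcpt1 there were 0.774, 0.366 and 1.75 counts of Hdc in the DSS libraries and 0.137, 0.230 and 0.385 in the DSS+BV libraries, where DSS+BV 3 again exceeded DSS 2.

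Hdc is also expressed by basophils and by immature myeloid cells. All 6 neutrophil markers were lower in the DSS+BV group without overlap, 5 were called lower with edgeR and 6 with DESeq2, and their summed level was 126 to 160 CPM in the DSS group and 10.3 to 21.8 CPM in the DSS+BV group. Of all tested genes, 11.3% were lower without overlap, and 0.0892% with edgeR and 1.93% with DESeq2 were called lower. The list was chosen with earlier results of these data known, and S100a8 and S100a9 ranked 1 and 2 by p-value. When each library was left out in turn, edgeR called 0 to 3 of the 6 lower. Without both DSS 2 and DSS+BV 1 it called 6, against 333 of all 14654 genes tested in that fit. The markers were S100a8 (log2 fold change -4.42, adjusted p = 0.0127), Mmp8 (-4.32, adjusted p = 0.0179), S100a9 (-4.19, adjusted p = 0.0179), Cxcr2 (-3.61, adjusted p = 0.0293), Retnlg (-3.24, adjusted p = 0.0293) and Csf3r (-1.85, adjusted p = 0.243 with edgeR). S100a9, a subunit of calprotectin, was at 40.4, 36.5 and 55.1 CPM across DSS 1 to 3 and 3.10, 2.48 and 1.64 CPM across DSS+BV 1 to 3. The order of the 6 libraries by Hdc was that by the summed level of the markers, by S100a9 and by Csf3r, and not that by the other 4 markers. Whereas Hdc was highest in DSS 3, S100a8, Cxcr2 and Mmp8 were highest in DSS 1 and Retnlg in DSS 2. These orders were compared after the values were seen. The difference in Hdc was smaller than that in S100a9, and its counts equalled 15.7, 17.2 and 17.5% of those of S100a9 in the DSS libraries and 59.6, 51.3 and 57.7% in the DSS+BV libraries. Relative to Csf3r, the G-CSF receptor, the shares were 22.5, 26.5 and 27.7% against 13.8, 20.2 and 21.7%.

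**Figure D4:**
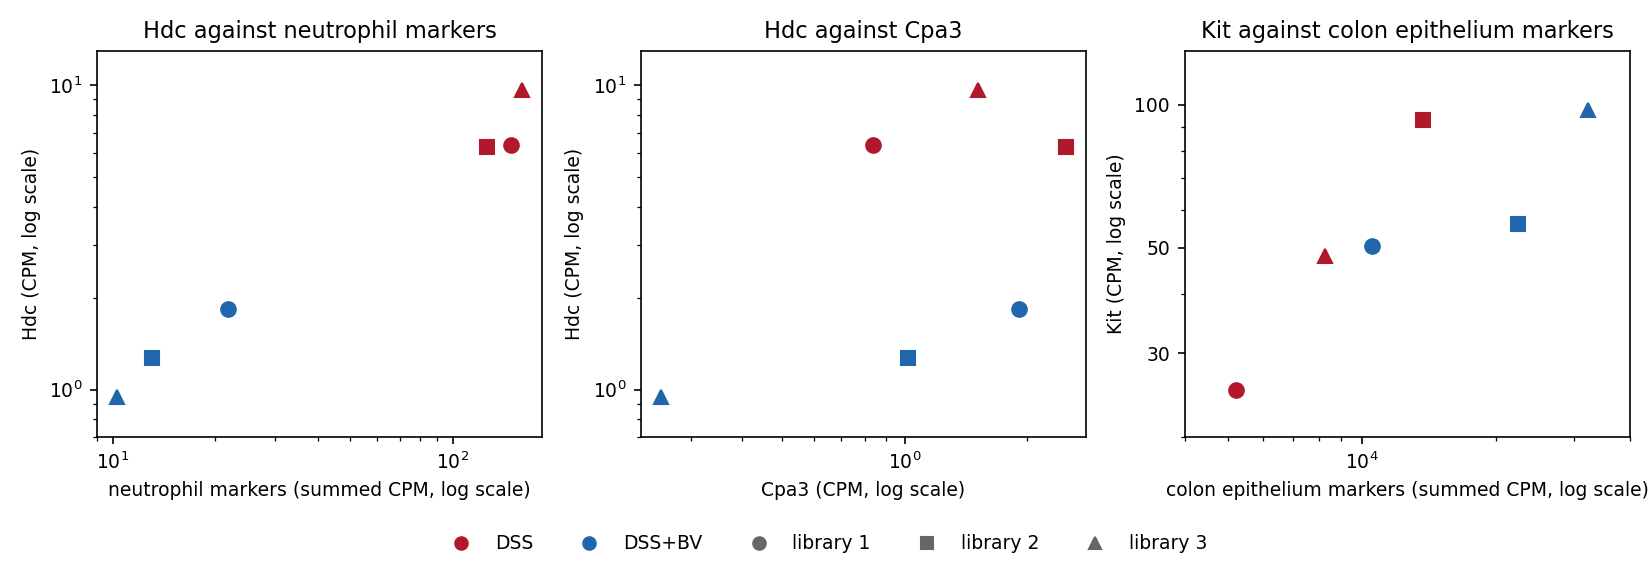
Each point is 1 library (red, DSS; blue, DSS+BV), with CPM on log scales on both axes. Left, Hdc against the summed level of the 6 neutrophil markers, where DSS+BV libraries lie at 10.3 to 21.8 CPM and DSS libraries at 126 to 160 CPM. Middle, Hdc against the mast cell gene Cpa3, whose groups overlap. Right, Kit against the summed level of the 6 colon epithelium markers, with the lowest values of both in DSS 1 and the highest in DSS+BV 3. Muc2 is the largest part of this sum in every library except DSS+BV 2, where Car1 is.

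Of the 5 basophil markers, Mcpt8 had 2, 6 and 1 counts and Prss34 had 3, 1 and 1 counts in the DSS libraries, and both had 0 in every DSS+BV library, which allows up to 0.198 CPM. Il4 had 1 count in all. Il3ra, the interleukin-3 receptor chain and the 1 basophil marker tested, was not called (log2 fold change -1.10, adjusted p = 0.318), and Cd200r3 had 2, 2 and 6 against 1, 1 and 8 counts. The summed level of the 5 was 5.35 to 10.1 CPM in the DSS group and 3.43 to 3.67 CPM in the DSS+BV group. Most of this sum was Il3ra, at 6.89, 4.72 and 9.67 CPM across DSS 1 to 3 and 3.36, 3.38 and 3.16 CPM across DSS+BV 1 to 3. The sum therefore adds little to Il3ra alone. The part of neutrophils and basophils in the difference in Hdc was not tested.

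Per kilobase of the longest coding transcript, the mean level over the 6 libraries was 11.8 CPM for Kit, 8.61 for Mcpt1, 4.80 for Mcpt2, 1.84 for Hdc, 1.70 for Cma1, 0.923 for Cpa3, 0.296 for Mcpt4, 0.281 for Tpsb2, 0.207 for Fcer1a and 0.132 for Ms4a2. Kit ranged from 4.80 to 18.6 and Mcpt1 from 2.43 to 16.9 CPM per kilobase, and each neighbouring pair in this order overlapped across libraries. DSS+BV 3 held the lowest level of 8 of the 10 members, all but Kit and Tpsb2, and 3 of these (Mcpt4, Cma1 and Ms4a2) had no count in it.

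The genes whose pattern over the 6 libraries was most like the mean of Mcpt1 and Mcpt2, among 14076 genes with a mean of at least 1 CPM, were Zfp608, Shprh, Pik3c2g, Cttnbp2 and Stxbp6 (Pearson's r between 0.974 and 0.996 on log2 CPM). Pik3c2g was at 1.14, 2.98 and 0.699 CPM in the DSS libraries and at 1.71, 0.446 and 0.190 CPM in the DSS+BV libraries. The genes most like the mean of Mcpt4 and Cma1 were Mef2d, St3gal6, Thbs4, Fam3a and Robo2 (r between 0.990 and 0.997). Thbs4, a matrix protein found in the gut muscle, was lowest in DSS+BV 3 at 32.6 CPM against 255 to 627 CPM in the other libraries. Each group of 5 was selected as the closest of many genes over few libraries, so these r are descriptions.

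Among further granule and surface genes of mast cells, 0 passed the test with either tool. Of 20 listed, 19 were in the table and 13 were tested, with 9 below and 4 above 0 on the log2 scale and a median of -0.15. The median was 0.06 without DSS 3 and -0.31 without DSS 2. Without both DSS 2 and DSS+BV 1, 1 gene was called lower, against 333 of all 14654 genes tested in that fit. Gata1, a transcription factor gene under the filter, was lower without overlap, at 2, 6 and 4 counts against 1, 0 and 1. It was the 1 gene of the 19 without overlap, against 17.6% of all tested genes in either direction. The serglycin gene Srgn, whose proteoglycan holds the granule content together, had the lowest fold change (-1.33, adjusted p = 0.388), and Tpsg1, a membrane-bound tryptase, the highest (0.63, adjusted p = 0.560). Tpsg1 was at 11.7, 32.5 and 21.3 CPM across DSS 1 to 3 and 27, 26.9 and 47.4 CPM across DSS+BV 1 to 3, with the lowest and highest values in the same libraries as Kit. The transcription factor gene Mitf was at -0.69 (adjusted p = 0.456). The most abundant were Serpinb1a, Cd63 and Mlph, with adjusted p-values between 0.890 and 0.9995. Their means in the DSS group were 591, 414 and 107 CPM, far above the 1.61 CPM of Cpa3. The median of this list is therefore not a measure of mast cells alone, and the part of other cells in it was not tested. The connective tissue receptor gene Mrgprb2 had 1 count in all, in DSS 1, and Ctsg had 2.

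Of the 20 genes of IgE receptor signalling, all were tested, 0 were called by either tool and 20 were below 0 on the log2 scale, with a median of -0.46. The median was -1.10 without DSS+BV 1 and -0.15 without DSS 3. Without both DSS 2 and DSS+BV 1 it was -1.31, and 7 of the 20 were called lower. In that fit, 333 of all 14654 genes tested were called lower and 282 higher. Fcer1g, the gamma chain shared with other Fc receptors, was at 44.0, 19.7 and 64.1 CPM across DSS 1 to 3 and 31.1, 17.8 and 14.2 CPM across DSS+BV 1 to 3 (log2 fold change -1.02, adjusted p = 0.439). The groups overlapped for Fcer1g and for the other 19. The kinase genes Fyn (-0.73, adjusted p = 0.394), Lyn (-0.59, adjusted p = 0.519) and Syk (-0.42, adjusted p = 0.671) act directly below the receptor, and the calcium sensor gene Stim1 was nearest 0 at -0.04. Most of these genes are used by other leukocytes as well. The summed level of 3 plasma cell markers was 543 to 1414 CPM in the DSS group and 238 to 955 CPM in the DSS+BV libraries. None of the 3 was called, and the part of other leukocytes in the signalling genes was not tested.

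Among 20 genes of mast cell growth and homing, 15 were tested and 0 were called with edgeR. With DESeq2, 2 of them, Il33 and Sphk1, were called lower, against 1.93% of all genes. The median log2 fold change was -0.56. The median was -1.24 without DSS+BV 1 and -0.24 without DSS 3. Without both DSS 2 and DSS+BV 1 it was -1.48, and 7 genes were called lower, against 333 of all 14654 genes tested in that fit. Il33 encodes an alarmin that activates mast cells through the receptor encoded by Il1rl1. It was at 50.1, 50.4 and 62.5 CPM across DSS 1 to 3 and 15.5, 23.9 and 11.9 CPM across DSS+BV 1 to 3. The groups did not overlap, and the log2 fold change was -1.67 (SE 0.27, adjusted p = 0.144 with edgeR and 2.0e-05 with DESeq2). Of the 18 genes of this list in the table, 2 were lower and 0 higher without overlap, against 11.3% and 6.37% of all tested genes. Sphk1, a kinase that forms the chemoattractant sphingosine 1-phosphate, was at 21.6, 13.1 and 26.3 against 9.5, 7.77 and 7.59 CPM (log2 fold change -1.29, adjusted p = 0.239 with edgeR and 0.00734 with DESeq2). Kitl, the ligand of Kit, was at 0.09 (adjusted p = 0.891), Vcam1 at -0.93 (adjusted p = 0.483), Mcl1 at 0.05 (adjusted p = 0.962) and the integrin gene Itgae, the highest, at 0.11 (adjusted p = 0.885).

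Of 20 mediator enzymes and receptors, 15 were tested, 12 were below 0 and 3 above on the log2 scale, with a median of -0.23 and 0 called by either tool. The median was 0.03 without DSS 3, -0.46 without DSS+BV 1 and -0.57 without both DSS 2 and DSS+BV 1. For histamine breakdown, Hnmt was lower without overlap, at 2.51, 5.22 and 4.48 against 2.18, 2.1 and 1.96 CPM, and did not pass the test (log2 fold change -0.97, adjusted p = 0.361). Aoc1, the diamine oxidase gene and the most abundant of the list, was at 0.57 (adjusted p = 0.520). For leukotrienes, Alox5ap was at -1.26 (adjusted p = 0.367) and Lta4h at 0.49 (adjusted p = 0.320), both without overlap between the groups. Of the 20 genes of this list, 4 were lower and 1 was higher without overlap, against 11.3% and 6.37% of all tested genes. The protease-activated receptor gene F2rl1, a target of tryptase, was at -0.06 (adjusted p = 0.897), and the histamine receptor gene Hrh1 had the highest value, 0.60 (adjusted p = 0.542).

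The remaining marker lists did not pass the test. Of 4 eosinophil markers 2 were tested and 0 called, with a summed level of 1.74 to 6.59 CPM in the DSS group and 3.03 to 4.43 CPM in the DSS+BV group. The median log2 fold change of these 2 was -0.22, and 0.22 without DSS 3. Without both DSS 2 and DSS+BV 1 it was 0.70, with 1 gene tested. Of 4 smooth muscle markers 0 were called, with a summed level of 2165 to 2670 against 1787 to 2730 CPM, the lowest in DSS+BV 3, where Cma1 and Mcpt4 had no count.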

How the data were processed

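RNA-seq of 6 colon libraries was analysed. Per the labels and the study methods, the authors aligned reads with HISAT2 2.1.0 and Bowtie2 2.2.5 to GRCm38.p6, quantified genes with RSEM 1.2.8 and deposited the expected counts per gene, unscaled. The labels do not state that libraries came from separate animals, so p-values measure the spread between these libraries, which may be technical. Here, expected counts were rounded and filtered with filterByExpr (minimum count 10, minimum total 15), which left 14579 genes. They were scaled with TMM and tested with edgeR 4.0.16 (quasi-likelihood, R 4.3.3), with Benjamini-Hochberg adjustment over all tested genes. DESeq2, the tool of the study, was the alternative (version 1.42.0). The biological coefficient of variation was 32.1%. Log2 CPM used a prior count of 2. The 95% intervals of fold changes used the F statistic and the total degrees of freedom. Wilson intervals and limits for 0 cover counting error only. Lengths came from GENCODE and promoters from RefSeq. The fits were tested on simulated data. Figures used matplotlib 3.10.9.

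All 10 members were named. From each other list, called genes were named with the 3 most abundant, the 2 with the smallest p-values and the lowest and highest fold change, and any marker of basophils, interstitial cells of Cajal, neutrophils and colon epithelium. Other names were chosen after their values were seen. Members and lists were chosen with earlier results of these data known. Leaving out both DSS 2 and DSS+BV 1 was added after seeing the data.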

Additional observations from a re-analysis of the deposited data

How the results depend on the processing

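The number of mast cell genes called lower in the DSS+BV group was 0 with edgeR, 1 (Hdc) with DESeq2 and 1 (Hdc) without both DSS 2 and DSS+BV 1. It was 0 with RLE or upper-quartile factors, without the filter, with a robust fit and each library left out in turn. No member was called higher under any of these. Of all tested genes, 13 were lower and 0 higher. DESeq2 called 282 lower and 41 higher, leaving out each library in turn 0 to 3 lower and 0 to 4 higher, and leaving out both libraries 333 lower and 282 higher, where libraries that resembled the other group had been removed. For same-numbered libraries, deviations from the group means correlated at 0.27, 0.25 and -0.30, and for other pairs across groups at -0.57 to 0.48. With so few libraries, these values cannot decide whether libraries of 1 number share a batch. With the replicate number as a block, 0 genes were lower, Cma1 was at -0.16 and Ms4a2 at -0.19, and no member was called.

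The direction of 6 members depended on 1 library. With each library left out in turn, the log2 fold change lay between -1.34 and 0.078 for Mcpt1, between -1.23 and 0.39 for Mcpt2, between -0.73 and 0.16 for Tpsb2, between -1.02 and 1.12 for Cma1, between -0.051 and 0.90 for Kit (-0.048 without DSS 1) and between -1.17 and 0.69 for Ms4a2, which was -0.28 without DSS 3. Without both DSS 2 and DSS+BV 1, Cma1 was at -1.31 and Ms4a2 at -0.82. The cause was not tested. Mcpt4, Cpa3, Fcer1a and Hdc stayed below 0 under every alternative that could be fitted. The difference between DSS+BV and DSS in the mucosal minus connective tissue protease log2 ratio was 0.17. This group difference lay between -0.20 (without DSS 3) and 0.51 (without DSS 2), and reached 0.54 with a prior count of 0.5. Another scaling moved the median of all genes to between -0.06 and 0.00. DESeq2 was not run without the filter. With 4 members under 20 counts, depth limits what can be said of Mcpt4, Tpsb2, Fcer1a and Ms4a2.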
